A study of Mus musculus with 10 samples.

Results

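The heavy chain variable genes were the 115 genes, of 22380 quantified, whose symbol begins with Ighv. They were chosen by symbol alone, and 166 of the 64019 quantified transcripts belong to them. The libraries came from NP-binding germinal center B cells sorted 2 weeks after immunization with NP-OVA in alhydrogel, with a library for each sample label, and the sort used GL7 and absence of IgD. There were 2 WT libraries (Zbtb38 fl/fl without Cre), 2 HET libraries (Zbtb38 fl/+ with Vav-Cre) and 6 KO libraries (Zbtb38 fl/fl with Vav-Cre), all labelled C57Bl6/N. The floxed allele descends from a single founder, is also carried by the WT controls, and loses its last exon under Cre. Vav-Cre acts throughout hematopoietic cells and not only in B cells. Age is not among the labels, and the label field for treatment reads untreated although the study's methods describe the immunization. The labels do not tie libraries to mice, but the study's figure legends count the samples of each genotype as mice.

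Each B cell joins a variable, a diversity and a joining segment of the heavy chain locus, so the Ighv gene that a cell transcribes is a mark of its clone that its descendants keep. A selected response can therefore show as an unequal use of Ighv genes. No library of unselected B cells was among the samples, so the use seen here has no such baseline. In C57BL/6 mice the response to the hapten NP is dominated by antibodies that join the Ighv1-72 heavy chain to a lambda 1 light chain, and germinal center B cells also mutate the joined segments.

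Ighv1-72 (ENSMUSG00000096074.2) lies on the minus strand of chromosome 12 at chr12:115757984-115758461 in GRCm38, in 2 exons. Its nearest relative is Ighv1-62-3 (chr12:115460999-115461485, minus strand), with 98.3% protein identity and 99.1% coding identity. The first 300 bases of exon 2, which encodes the part of the variable domain that the Ighv gene supplies, are shown for both. Reads from them are hard to tell apart. Both are from the GRCm38 transcripts of Gencode, on the coding strand. Capitals in the second sequence mark the bases that differ from Ighv1-72.
Ighv1-72 (chr12:115757989-115758288): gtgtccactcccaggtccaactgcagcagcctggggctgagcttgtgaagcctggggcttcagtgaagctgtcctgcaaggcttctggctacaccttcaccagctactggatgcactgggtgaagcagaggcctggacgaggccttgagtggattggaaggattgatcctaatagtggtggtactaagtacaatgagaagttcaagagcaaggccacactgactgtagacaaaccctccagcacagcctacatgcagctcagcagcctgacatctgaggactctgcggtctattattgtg
Ighv1-62-3 (chr12:115461004-115461303): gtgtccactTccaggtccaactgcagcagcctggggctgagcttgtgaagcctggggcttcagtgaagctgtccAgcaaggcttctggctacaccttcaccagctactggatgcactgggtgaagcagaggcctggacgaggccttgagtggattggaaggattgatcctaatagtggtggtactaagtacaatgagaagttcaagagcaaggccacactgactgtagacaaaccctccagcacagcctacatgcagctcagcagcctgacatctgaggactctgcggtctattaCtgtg
These are 3 differences in 300 bases. Of the 31-base words of the Ighv1-72 transcript, 1.91% were found in no other quantified gene and 80.3% were also in Ighv1-62-3. The remaining words were shared with other genes. Of the words of Ighv1-62-3, 18.9% were found in no other quantified gene and 78.4% were also in Ighv1-72. How reads were divided between this pair therefore rested on few bases and on the estimation in Salmon.

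The next genes by protein identity were Ighv1-64 (92.3%), Ighv1-53 (90.6%), Ighv1-50 (88.0%) and Ighv1-52 (87.2%, a value that 4 genes share). In exon 2 they differed from Ighv1-72 at 12, 12, 25 and 28 of 305 bases. The 60-base window of exon 2 in which the 5 relatives together differ most from Ighv1-72 is shown for all 6 genes, on the coding strand, because it shows how the less alike relatives differ. Capitals mark differences from Ighv1-72.
Ighv1-72 (chr12:115758092-115758151): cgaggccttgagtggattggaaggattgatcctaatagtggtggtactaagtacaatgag
Ighv1-62-3 (chr12:115461107-115461166): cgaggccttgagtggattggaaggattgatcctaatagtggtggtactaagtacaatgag
Ighv1-64 (chr12:115507653-115507712): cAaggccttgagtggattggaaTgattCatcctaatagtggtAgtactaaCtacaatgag
Ighv1-53 (chr12:115158511-115158570): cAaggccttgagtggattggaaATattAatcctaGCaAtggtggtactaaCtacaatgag
Ighv1-50 (chr12:115119856-115119915): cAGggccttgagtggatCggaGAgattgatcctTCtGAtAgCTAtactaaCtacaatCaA
Ighv1-52 (chr12:115145595-115145654): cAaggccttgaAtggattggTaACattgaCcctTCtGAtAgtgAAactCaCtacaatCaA
Ighv1-62-3 had no difference in this window, Ighv1-64 had 5, Ighv1-53 had 8, Ighv1-50 had 16 and Ighv1-52 had 17.

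The libraries held 26612431 to 41059082 estimated counts, of which 26440 to 81707 were from Ighv genes. Zbtb38 was at 164 and 152 TMM-normalized CPM, the counts per 1e+06 counts of the library, in WT and 117 and 106 CPM in HET. In KO it ranged from 18.5 to 50.1 CPM, so no KO library overlapped the others. All 8 germinal center B cell markers reported (Bcl6, Fas, S1pr2 and others) were above 1 CPM in every library, with a summed level of 4601 to 6518 CPM. KO replicate 6 stood apart in receptor and germinal center genes. It was the lowest of the 10 libraries in 4 of the 8 germinal center markers, Bcl6 (168 CPM), S1pr2 (295 CPM), Gcsam (249.6 CPM) and Mef2b (273 CPM), while Ms4a1, which B cells express broadly, made up 2729 CPM of its marker sum of 4676 CPM. Ighg1 was 2.45% of its heavy chain constant counts, against 17.0% to 37.6% in the other 9 libraries, and Ighm with Ighd was 83.2%, against 33.7% to 66.1%. Naive B cell markers summed to 1641 CPM there, the highest of the 10 libraries, against 898 to 1390 CPM in the others. Of the 7 naive markers, 4 were highest there, and Fcer2a (253 CPM) and Il4ra (215 CPM) were below both WT libraries. Of the 8 plasma cell markers, 4 were also highest there, Sdc1 (28.8 CPM), Prdm1 (31.2 CPM), Xbp1 (462 CPM) and Tnfrsf17 (7.02 CPM). The plasma cell sum of 2305 CPM was inside the 1633 to 2412 CPM of the other libraries. Igha was at 260 CPM in KO replicate 6, against 35.0 to 110 CPM in the others. The summary measures compared between genotypes are given with and without that library.

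Ighv1-72 was the most used gene in 9 of the 10 libraries. It made up 19.4% and 17.6% of Ighv counts in WT, and 20.9% and 26.8% in HET. In KO the share had a lowest value of 3.11%, a median of 17.0% and a highest value of 28.3%. The KO range held both WT and both HET values, and the lowest value was that of KO replicate 6, where Ighv1-72 was only the sixth gene (rank 6). At 26440 or more Ighv counts per library, the 95% Wilson interval of the Ighv1-72 share was at most 0.534 percentage points to either side. It covers counting error only. The range over all libraries was wider than that error. The intervals of WT replicate 1 (19.1% to 19.7%) and KO replicate 4 (19.5% to 20.2%) overlapped. In bulk samples, fewer cells that express a gene and less RNA per cell cannot be told apart.

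**Figure D1:**
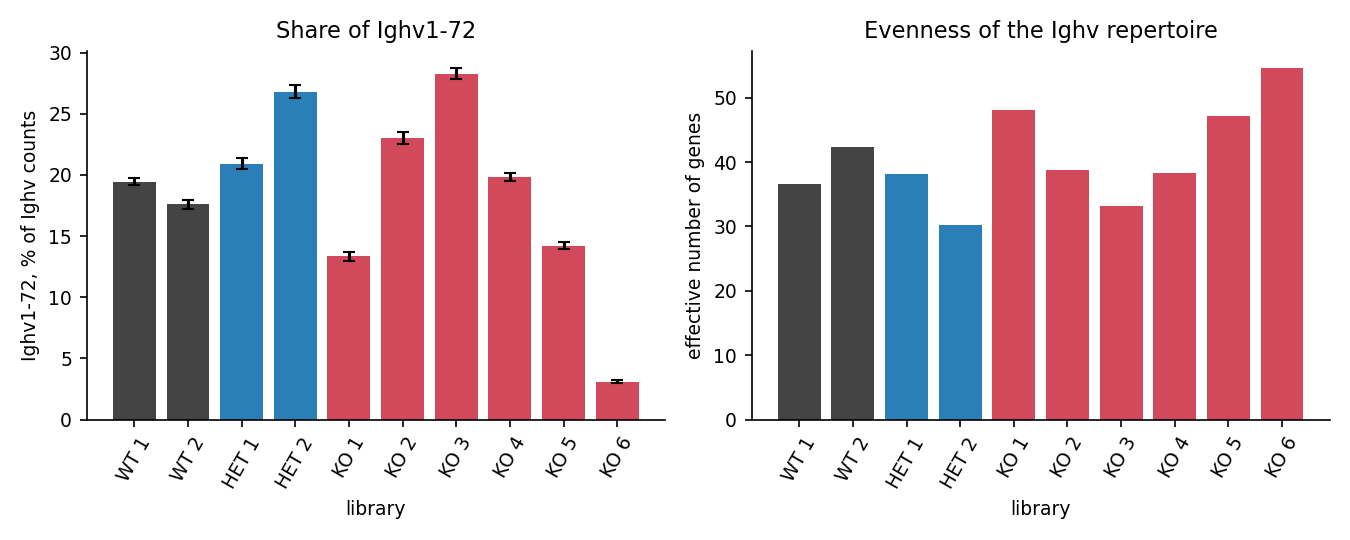
Left, share of Ighv1-72 in the Ighv counts of each library (%), with 95% Wilson intervals as error bars. Right, effective number of Ighv genes, the number of equally used genes that would give the same Shannon entropy. Bars are libraries, dark for WT, blue for HET and red for KO. KO replicate 6 has the lowest share (3.11%) and the highest effective number (54.6).

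The mean share was 18.5% ± 1.30 (SD, n = 2) in WT and 17.0% ± 8.79 (SD, n = 6) in KO. The difference of the means was 1.54 percentage points (two-sided exact permutation test, p = 0.821, adjusted p = 0.821 over 8 tests, smallest possible p = 0.0357). It was smaller than the SD in KO. Without KO replicate 6 the difference changed sign to -1.23 percentage points (p = 0.857, exact permutation test). WT and HET together had a mean of 21.2% ± 3.98 (SD, n = 4), which was 4.22 percentage points above KO (exact permutation p = 0.414, adjusted p = 0.694). Without KO replicate 6 the difference was 1.44 (exact permutation p = 0.690), and without HET replicate 2 it was 2.35. On the TPM scale, which divides by transcript length, Ighv1-72 made up 2.69% to 25.6% of the Ighv total, and it ranked first in the mean over libraries on this scale too.

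The near-identical Ighv1-62-3 took 0.0509% to 0.366% of Ighv counts. Adding it to Ighv1-72 gave 3.16% to 28.6%, so counting the pair as 1 gene raised the share by at most 0.366 percentage points. How much of the Ighv1-72 count came from Ighv1-62-3 or from other genes was not measured beyond the estimate of Salmon. The count of Ighv1-72 was 45.5 to 102 times that of Ighv1-62-3. Among the other relatives, Ighv1-64 made up 2.87% to 5.98%, Ighv1-53 made up 1.06% to 3.53%, Ighv1-50 made up 0.482% to 2.04% and Ighv1-52 made up 0.394% to 0.780%.

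Evenness was measured as the effective number of Ighv genes, the exponential of the Shannon entropy of the shares. It was 36.6 and 42.4 in WT, and 38.1 and 30.2 in HET. In KO the lowest value was 33.2, the median 42.9 and the highest 54.6. Of 115 genes, 99 to 108 were detected per library, so the reads were concentrated on far fewer genes than were present. The means were 39.5 ± 4.05 (SD, n = 2) in WT and 43.3 ± 7.91 (SD, n = 6) in KO, a difference of -3.83 (exact permutation p = 0.536, adjusted p = 0.694). It was -1.58 without KO replicate 6, -0.964 without WT replicate 1 and -6.70 without WT replicate 2. WT and HET together averaged 36.8 ± 5.06 (SD, n = 4), 6.52 genes fewer than KO by the exact permutation test (difference -6.52, p = 0.181, adjusted p = 0.694), and the difference was -4.27 without KO replicate 6 and -4.30 without HET replicate 2. The inverse Simpson index, which weights the most used genes more, was 15.0 and 20.3 in WT, 16.3 and 11.0 in HET, and 10.8 to 40.5 in KO.

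With Ighv1-72 left out, the effective number was 47.4 and 53.6 in WT and 52.2 and 47.4 in HET. In KO it then ran from 50.7 to 57.6, with a median of 55.4. KO replicate 6 was at 53.8, inside the range of the other KO libraries. With the most used gene of each library left out, WT and HET were 5.37 genes below KO (exact permutation p = 0.0238, before adjustment). Among the alternatives run for the summary measures, it was the only one to pass the threshold of 0.05. In KO replicate 6 the gene left out was Ighv3-6, so Ighv1-72 stayed in there. No value of this alternative without KO replicate 6 was computed. The difference over the full repertoire was larger, but its p was above the threshold.

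The 10 genes with the largest mean shares were Ighv1-72, Ighv3-6, Ighv1-64, Ighv1-82, Ighv9-3, Ighv1-81, Ighv14-3, Ighv5-17, Ighv1-9 and Ighv1-55. The 10 together had mean shares summing to 47.8%, and 25 genes reached a mean share of 1%. It took 12 genes to reach 50% of the mean repertoire and 53 to reach 90%, while 27 genes were under 0.1% and 2 genes had no count in any library. A count of 0 allows up to 3 counts, or at most 0.0113% of Ighv counts in the library with the fewest.

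Ighv3-6 was 2.01% and 6.87% in WT, 4.22% and 8.17% in HET, and 1.96% to 7.51% in KO. Its highest KO value was in KO replicate 6, where it was the most used gene. Ighv9-3 was 2.62% and 3.74% in WT, 4.59% and 2.74% in HET, and 2.38% to 5.93% in KO. Ighv14-3, which was 2.72% and 3.57% in WT and 3.71% and 4.33% in HET, ranged from 1.05% to 3.64% in KO, again with KO replicate 6 the lowest. Among genes with a mean of at least 1%, Ighv1-80 varied least between libraries (1.10% to 2.10%, coefficient of variation 21.8%). Ighv1-82 varied most, with a coefficient of variation of 117%.

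**Figure D2:**
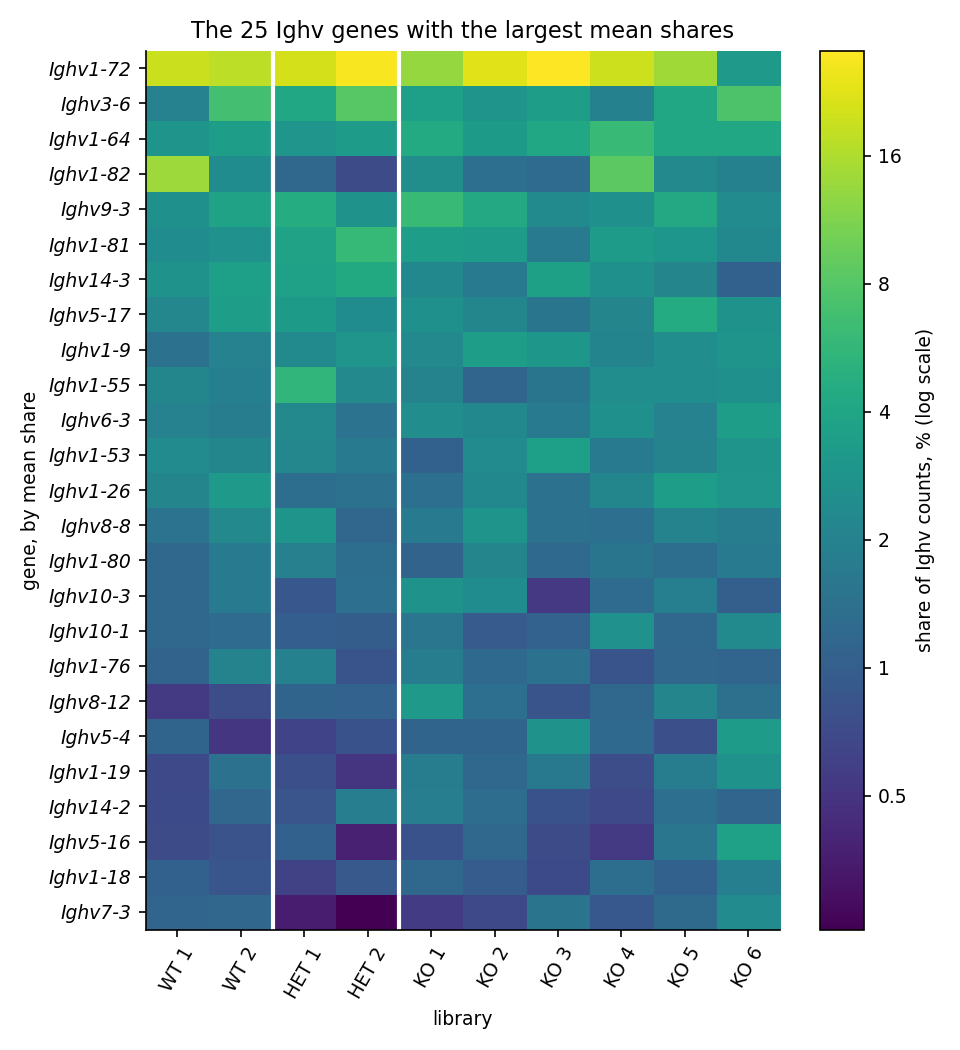
Share of Ighv counts (%, log colour scale) of the 25 genes with the largest mean shares, in rows, for the 10 libraries, in columns, with white lines between WT, HET and KO. Ighv1-72 is the brightest row except in KO replicate 6, and Ighv1-82 is bright in WT replicate 1 (14.0%) and KO replicate 4 (8.59%).

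Some genes were high in a library and low in the rest. Ighv1-82 made up 14.0% of Ighv counts in WT replicate 1 and 8.59% in KO replicate 4, and 0.721% to 2.55% in the other 8 libraries. The peak therefore stood in a WT and in a KO library. In all, 7 genes reached at least 1% in a library and at least 5 times the median of the other libraries, a rule chosen after the values were seen, and these peaks fell in 6 libraries. Ighv8-5 reached 2.00% in WT replicate 1, 13.3 times the median of the others. Ighv1-34 reached 2.58% in WT replicate 2, and Ighv12-3 reached 1.97% in HET replicate 2. In KO, Ighv7-1 reached 2.28% in replicate 1, Ighv5-9 reached 2.41% in replicate 5 and Ighv1-58 reached 2.38% in replicate 6.

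The repertoires of any 2 libraries shared 61.0% to 85.3% of their counts, taken as the sum over genes of the smaller share. Pairs of the same genotype shared 63.6% to 81.0% (17 pairs, median 75.2%), and pairs of different genotypes shared 61.0% to 85.3% (28 pairs, median 75.6%). Of the 17 pairs of the same genotype, 15 were pairs of KO libraries. Without KO replicate 6 the medians were 76.0% (same genotype, 12 pairs) and 76.5% (different genotypes, 24 pairs). Pairs share libraries, so these are descriptions without a test. The 9 pairs with KO replicate 6 had a median of 63.9%, and the other 36 had a median of 76.4%. With Ighv1-72 left out, the pairs with KO replicate 6 had a median of 71.0% and the others 73.8%. The pair most alike was WT replicate 1 and KO replicate 4 (85.3%), which are the libraries with the Ighv1-82 peaks. Spearman's rho across the 115 genes was 0.827 to 0.930 over all pairs, a description across genes that share length and sequence.

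The genes fall into 16 families by the number after Ighv in the symbol, which groups genes of like sequence. Ighv1, with 54 genes (47.0% of the genes), held 67.8% and 60.1% of counts in WT, 61.4% and 62.6% in HET, and 51.5% to 67.4% in KO. Ighv5 followed with a mean of 8.38% over the 10 libraries and Ighv3 with 5.24%. Of the 10 families with a mean of at least 1%, none passed an adjusted p under 0.05 between WT and KO (0 of 10; smallest exact permutation p = 0.0714, adjusted p = 0.714, for Ighv2) or between WT plus HET and KO (0 of 10). The smallest p in the latter was again for Ighv2, at 1.54% ± 0.456 (SD, n = 4) against 2.54% ± 0.686 (SD, n = 6; exact permutation p = 0.0429, adjusted p = 0.190). Ighv2 was 1.37% and 1.38% in WT, 2.21% and 1.20% in HET and 1.59% to 3.31% in KO, so the ranges of controls and KO overlapped. Ighv14 and Ighv6 had exact permutation p-values of 0.0571 and 0.0524 there, both with an adjusted p of 0.190.

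The Ighv genes lie 149 to 2570 kb from the nearest Ighj gene, the joining segments. Joining of the distant genes depends on contraction of the locus in developing B cells. The 58 genes more than 1182 kb away, Ighv1-72 among them at 2328 kb, held 69.9% and 60.1% of counts in WT and 62.0% and 60.9% in HET. In KO they held 51.8% to 66.9%, with a median of 59.2%. WT exceeded KO by 5.66 percentage points (exact permutation p = 0.321, adjusted p = 0.694), and WT with HET exceeded KO by 3.87 (exact permutation p = 0.310, adjusted p = 0.694). The WT excess was 0.757 without WT replicate 1, 10.6 without WT replicate 2 and 4.14 without KO replicate 6. That of WT with HET was 1.64 without WT replicate 1 and 2.35 without KO replicate 6. Neither difference exceeded the spread in KO of 6.03 (SD, n = 6). Without Ighv1-72 the distant genes held 46.6% to 62.7% of the rest, and the means were 57.1% in WT, 49.3% in HET and 51.1% in KO.

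**Figure D3:**
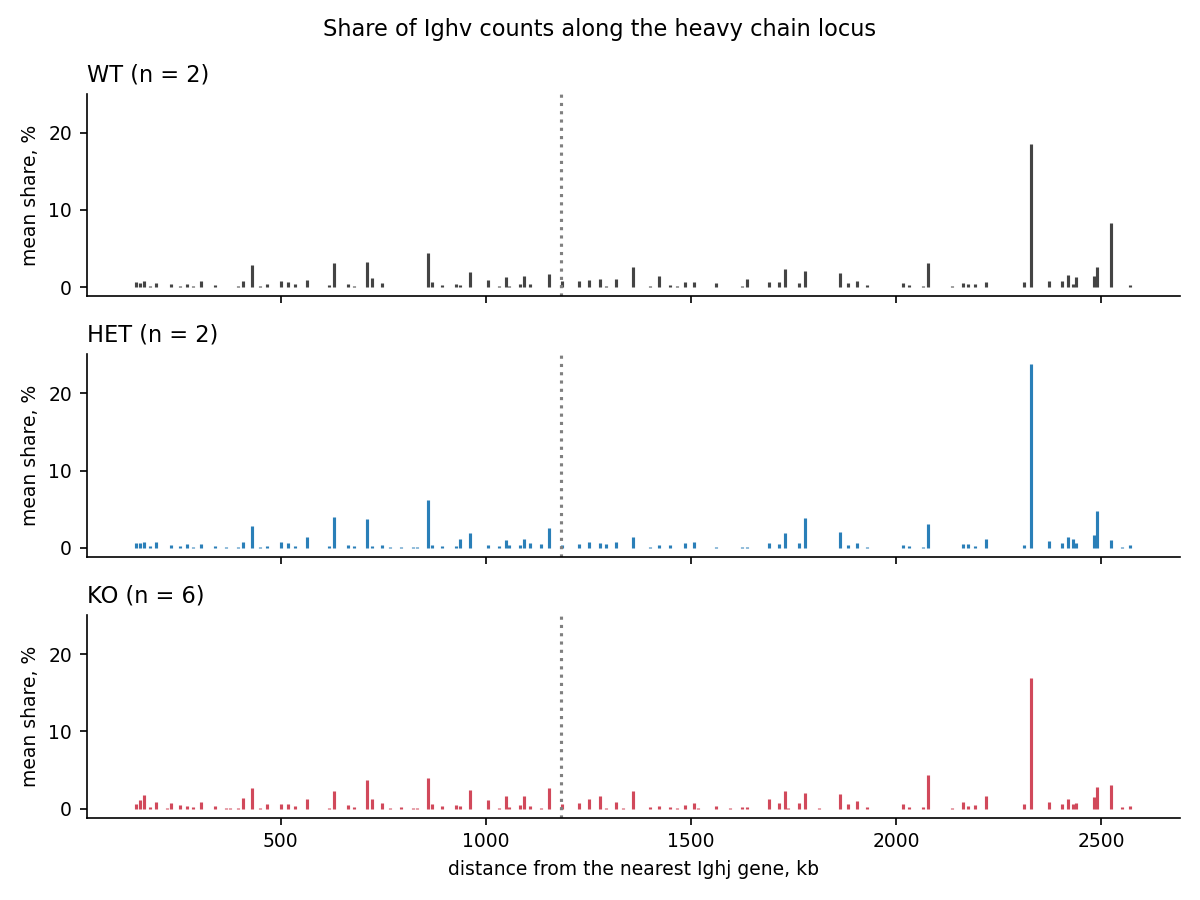
Mean share of Ighv counts (%) of each Ighv gene against its distance from the nearest Ighj gene (kb), for WT, HET and KO. Lines are genes, and the dotted line at 1182 kb splits the 115 genes into 57 nearer and 58 farther ones. The tallest line in each panel is Ighv1-72, at 18.5% in WT, 23.9% in HET and 17.0% in KO.

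Across libraries the share of Ighv1-72 followed the share of lambda 1, its usual light chain partner in this response. Lambda 1, taken as Iglc1 counts among those of Igkc, Iglc1, Iglc2 and Iglc3, was 21.2% and 22.0% in WT, 20.5% and 26.5% in HET, and 9.14% to 28.6% in KO. The lowest and the highest library were the same for both measures, KO replicate 6 and KO replicate 3. Over the 10 libraries Pearson's r was 0.971 (permutation p = 5.00e-05) and Spearman's rho was 0.806 (permutation p = 0.00691). This was the only correlation tested across libraries. Without the 2 libraries farthest from the median of lambda 1, r was 0.908 (n = 8, exact permutation p = 0.00464) and rho was 0.619 (exact permutation p = 0.115). Within KO, r was 0.984 (n = 6, exact permutation p = 0.00833), and without KO replicate 6 it was 0.939 over the other 9 libraries (exact permutation p = 0.00124). The Ighg1 share of heavy chain constant counts was also lowest in KO replicate 6, and its part in the relation was not tested.

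**Figure D4:**
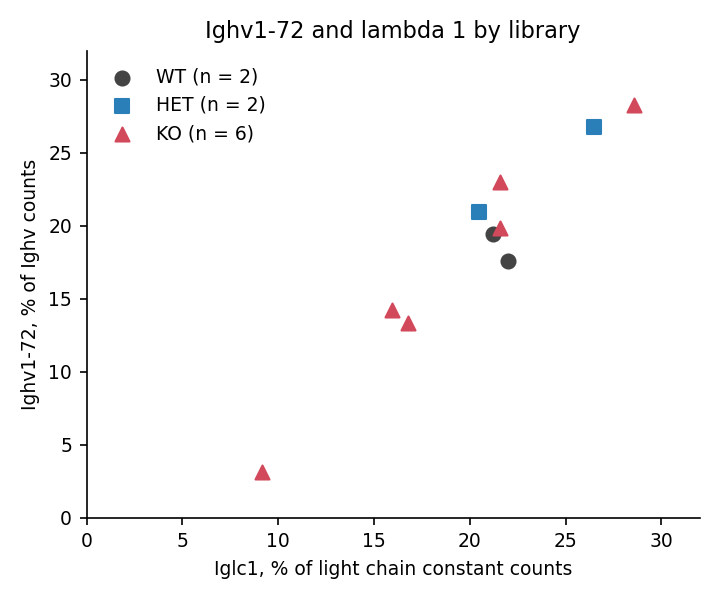
Share of Ighv1-72 in Ighv counts (%) against share of Iglc1 in light chain constant counts (%), a point per library, circles for WT, squares for HET and triangles for KO. The points rise together from KO replicate 6 (9.14%, 3.11%) to KO replicate 3 (28.6%, 28.3%).

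Ighv genes together made up 0.184% and 0.172% of all counts in WT and 0.0924% and 0.0931% in HET. In KO they made up 0.108% to 0.241%, with a median of 0.147%, so on counts the HET libraries lay below all 8 others. On the TPM scale that separation did not hold. There HET was at 0.856% and 0.867% of the total and KO replicate 1 at 0.845%. The WT mean was 0.178% ± 0.00822 (SD, n = 2) and the KO mean 0.158% ± 0.0509 (SD, n = 6; exact permutation p = 0.607, adjusted p = 0.694). The difference of the means was smaller than the SD in KO. WT minus KO was 0.0199 percentage points, and 0.0365 without KO replicate 6. WT with HET averaged 0.135% ± 0.0493 (SD, n = 4; exact permutation p = 0.5, adjusted p = 0.694). Its difference from KO was -0.0226 percentage points, and -0.00599 without KO replicate 6, -0.00835 without HET replicate 1 and -0.00856 without HET replicate 2. Set against the heavy chain constant counts, Ighv counts were 14.7 and 13.4 per 100 in WT, 11.3 and 11.0 in HET and 11.5 to 17.0 in KO.

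Other genes moved with HET as well. The 8 germinal center markers summed to 5622 and 5541 CPM in HET, above the 5060 and 4852 CPM of WT and inside the 4601 to 6518 CPM of KO. Ighm was at 2765 and 3247 CPM there, against 7627 and 7866 CPM in WT and 3833 to 11711 CPM in KO. Ighd was at 47.9 and 50.3 CPM, against 137 and 190 CPM in WT and 66.4 to 230 CPM in KO. The summed naive B cell markers (7 of 7 above 1 CPM in every library) were 898 and 987 CPM in HET, 1331 and 1390 CPM in WT and 923 to 1641 CPM in KO. The summed myeloid markers (3 of 5 above 1 CPM in every library) were 58.4 and 59.7 CPM in HET, 361 and 442 CPM in WT and 41.7 to 618 CPM in KO. The plasma cell markers (7 of 8 above 1 CPM in every library) summed to 1633 and 1774 CPM in HET, 1891 and 2153 CPM in WT and 1638 to 2412 CPM in KO. T cell markers (6 of 6) summed to 188 and 189 CPM in HET, 245 and 250 CPM in WT and 176 to 259 CPM in KO. Lck made up most of that sum, at 171 and 164 CPM in HET and 162 and 168 CPM in WT. Every other T cell marker was lower in both HET libraries than in both WT libraries. Cd3e was at 1.59 and 4.19 CPM in HET, 18.2 and 13.7 CPM in WT and 3.71 to 7.36 CPM in KO. The part of these cells in the Ighv level was not tested.

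Gene by gene, edgeR's quasi-likelihood test at an adjusted p under 0.1 called no Ighv gene in any comparison. Between WT and KO, 0 of 102 Ighv genes tested were called, against 0.00704% of all genes tested. At an unadjusted p under 0.05 there were 6, against 2.19% of all genes. Ighv1-78, Ighv1-11 and Ighv1-34 were higher in WT, and Ighv2-2, Ighv8-12 and Ighv2-5 were lower, with those beyond the 3 smallest p-values named after their values were seen. DESeq2 called 0 of 100 Ighv genes (0.0425% of all genes) and limma on log2(TPM + 1) called 0. The median log2 fold change, WT over KO, was -0.05 for the Ighv genes and -0.01 for all genes tested.

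Between WT plus HET and KO, 0 of 99 were called, against 0.00749% of all genes, and DESeq2 (0 of 93; 0.143% of all genes) and limma also called 0. At an unadjusted p under 0.05 there were 12, against 6.3% of all genes. Of these, 11 were lower in WT plus HET, against 2.26% of all genes, and Ighv1-20 was higher. The median log2 fold change was -0.37 for the Ighv genes and -0.02 for all genes. The count of 12 became 6 without KO replicate 6, 5 without HET replicate 1 and 7 without HET replicate 2. Leaving out any other library gave 8 to 13, so the count depended on single libraries.

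Ighv1-72 itself was at 356 and 288 CPM in WT, 198 and 256 CPM in HET and 75.9 to 382 CPM in KO, with a KO median of 234 CPM. Its log2 fold change was 0.41 (SE 0.448, edgeR adjusted p = 0.999) in WT over KO and 0.18 (SE 0.345, edgeR adjusted p = 0.921) in WT plus HET over KO. Ighv1-78 was at 18.6 and 24.8 CPM in WT, 4.30 and 7.01 CPM in HET and 6.52 to 15.6 CPM in KO. The WT values lay above all others, at a log2 fold change over KO of 1.00 (SE 0.312, edgeR adjusted p = 0.999).

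Ighv1-11 was at 5.25 and 2.94 CPM in WT and 0.652 to 1.64 CPM in KO (log2 fold change 1.67, SE 0.543, edgeR adjusted p = 0.999). Ighv2-2 was at 8.62 and 7.62 CPM in WT, below the 9.77 to 24.9 CPM of KO (log2 fold change -1.08, SE 0.392, edgeR adjusted p = 0.999). These were the 3 smallest p-values between WT and KO, and none passed adjustment. In WT plus HET against KO the smallest were those of Ighv8-12, Ighv1-50 and Ighv2-5. Ighv8-12 was at 9.98 to 12.3 CPM in the 4 control libraries and 11.3 to 38.7 CPM in KO (log2 fold change -1.25, SE 0.337, edgeR adjusted p = 0.744). Ighv1-50 was at 4.55 to 12.3 CPM in the controls and 11.5 to 28.0 CPM in KO (log2 fold change -1.21, SE 0.340, edgeR adjusted p = 0.744). Ighv2-5 was at 1.12 to 3.04 CPM in the controls and 2.43 to 10.4 CPM in KO (log2 fold change -1.52, SE 0.469, edgeR adjusted p = 0.744), so each of these 3 overlapped between the groups.

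The 2 comparisons with HET came from a fit over all 10 libraries and share the HET libraries. In HET against KO, 0 of 102 were called (0.00697% of all genes), and 26 had an unadjusted p under 0.05, against 10.2% of all genes. Of the 26, 25 were lower in HET, against 4.76% of all genes, and Ighv1-20 was higher. The median log2 fold change, HET over KO, was -1.10 for the Ighv genes and -0.07 for all genes, with 88 of 102 below 0. DESeq2 called 11 of 96, all lower in HET, against 3.54% of all genes, and limma called 0.

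In WT against HET, 0 of 102 were called (0.00697% of all genes), and 17 had an unadjusted p under 0.05, all higher in WT. The background was 6.42% of all genes, and 3.98% for genes higher in WT. The median log2 fold change was 0.88 for the Ighv genes and 0.01 for all genes, with 87 of 102 above 0. DESeq2 called 2 of 99, against 0.928% of all genes, Ighv7-3 and Ighv1-78, and limma called 0. Ighv7-3 was at 21.0 and 19.2 CPM in WT, 3.28 and 2.31 CPM in HET and 6.81 to 58.2 CPM in KO. Ighv1-72 was nearer to 0 than the median of the Ighv genes in both comparisons, at a log2 fold change of -0.09 (SE 0.442, edgeR adjusted p = 0.962) in HET over KO and 0.49 (SE 0.539, edgeR adjusted p = 0.961) in WT over HET.

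**Figure D5:**
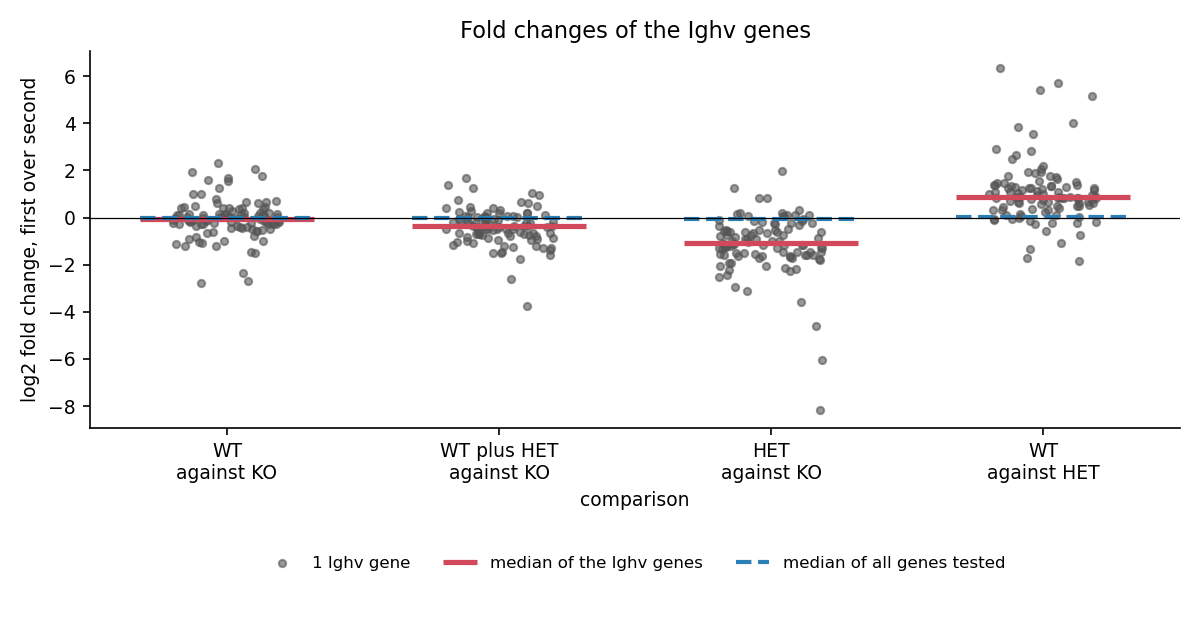
log2 fold changes (first group over second) of the Ighv genes tested by edgeR in each comparison, a point per gene with horizontal jitter. Red lines are the medians of the Ighv genes (-0.05, -0.37, -1.10 and 0.88), and dashed blue lines are the medians of all genes tested, which lie between -0.07 and 0.01.

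The other genes of antigen receptors and mutation formed a list of 21 tested genes, of which edgeR called 0 in each comparison. At an unadjusted p under 0.05 there was 1 between WT and KO (Igha, lower in WT), against 2.19% of all genes. Between WT plus HET and KO there were 2 (Igha, lower, and Msh6, higher), against 6.3% of all genes. There were 5 in HET against KO (Msh6 and Polh higher in HET, Ighm, Ighd and Igkc lower), against 10.2% of all genes. In WT against HET there were 4 (Ighd and Ighm higher in WT, Ighg2b and Polh lower), against 6.42% of all genes. The median log2 fold changes of the list were -0.03, -0.13, -0.20 and 0.15 in these 4 comparisons. Igkc, the kappa constant gene, was at 4512 and 3890 CPM in WT, 3188 and 2718 CPM in HET and 3199 to 7544 CPM in KO. Iglc1 was at 1563 and 1483 CPM in WT, 1056 and 1368 CPM in HET and 973 to 2043 CPM in KO. Ighg1, the IgG1 constant gene, was at 3275 and 2846 CPM in WT, 2918 and 3272 CPM in HET and 351 to 3532 CPM in KO, with the lowest in KO replicate 6.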

How the data were processed

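The authors made SMART-Seq v4 libraries, read them from both ends and quantified transcripts with Salmon 0.9.1 (per the labels) against Gencode vM17. The authors deposited estimated counts per transcript, not normalized, with TPM values and transcript lengths. Transcripts are germline sequences, so mutated or joined reads could be matched only to unmutated genes. How many such reads were lost or given to another gene was not examined. Of the 115 genes, 44 have under 50% of 31-base words to themselves. Estimated counts and TPM were summed per gene identifier. Counts were rounded for edgeR and DESeq2, and shares were taken from unrounded counts. Ighv transcripts are short (median 351 bases, effective length 21.2 to 270), which makes TPM of short ones imprecise. Positions and sequences come from Gencode vM21 on GRCm38, which held all 115 genes.

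Shares were tested by two-sided exact permutation tests with Benjamini-Hochberg adjustment over 8 tests, and single genes with edgeR 4.0.16 (TMM, filterByExpr, quasi-likelihood, adjusted p under 0.1 over all genes), with DESeq2 1.42.0 and limma 3.58.1 as alternatives (R 4.3.3; scipy 1.17.1, numpy 2.4.6, pandas 2.3.3 and Biopython 1.88 in Python 3.11.15). WT against KO and WT plus HET against KO used their own libraries, the others all 10. In simulated data edgeR recovered 36% of 2-fold and 74% of 4-fold changes in the design of WT against KO. The changed genes were drawn at random from all genes with enough counts, so these are not rates for Ighv genes. No replicate pair agreed within sampling noise. Intervals cover counting error only. Named genes are Ighv1-72, the 10 with the largest mean share, the most used of each library, the 5 closest in protein to Ighv1-72, genes past the threshold or else the 3 smallest p-values of the first comparisons, and, of the receptor list, those past the threshold or else Iglc1, Igkc, Ighm and Ighg1. Others were named after their values were seen. Some genes of the lists are not reported here. Members and lists were chosen with earlier results of these data known. The alternatives are given at the end.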

Additional observations from a re-analysis of the deposited data

Results flagged for a closer look

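Of 64 sets of values checked (named genes, families and summary measures, in the 6 KO libraries and in the 4 WT and HET libraries), 5 had a library far from the rest by Dixon's test, and chance alone flags about 1 in 20. Ighv1-82 was flagged in both sets, at 8.59% in KO replicate 4, where the other KO libraries were between 1.28% and 2.55%, and at 14.0% in WT replicate 1, where the other WT and HET libraries were between 0.721% and 2.47%. Ighv1-55 was at 5.51% in HET replicate 1, against 1.88% to 2.26% in the other 3 libraries. Ighv1-78 was at 1.52% in KO replicate 2, against 0.448% to 0.717% in the other KO libraries. The Ighv6 family was at 5.44% in KO replicate 6, against 2.85% to 3.44% in the other KO libraries.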

How the results depend on the processing

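The tests of 2 against 6 libraries cannot go below an exact permutation p of 0.0357. In WT against KO edgeR recovered 36% of simulated 2-fold changes, in genes drawn from all genes and not from the Ighv genes. The difference in Ighv1-72 share between WT and KO ran from -1.23 to 3.80 percentage points when a library was left out, and it changed sign only without KO replicate 6. The log2 fold change of Ighv1-72 in WT plus HET over KO ran from -0.0021, without that library, to 0.35. The effective number without the most used gene was 5.37 lower in WT plus HET than in KO (difference -5.37, exact permutation p = 0.0238), past the unadjusted threshold. No other alternative of the summary measures passed it. DESeq2 called 11 Ighv genes in HET against KO and 2 in WT against HET, where edgeR called 0. Leaving out a library gave 0 calls of genes in the 4 comparisons and 0 calls of families in WT against KO and WT plus HET against KO, where families were tested.

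Same-numbered libraries had correlations of deviations from their group means of -0.0168 to 0.123 over 11567 genes, and nothing in the labels says that a number marks a shared litter or day. With the replicate number as a block, edgeR called 4 Ighv genes higher in WT than in HET (Ighv7-3, Ighv1-26, Ighv1-82 and Ighv6-6; 66 genes in all) and 0 in the other comparisons. Within replicate numbers shared by the groups, the block gave mean differences in Ighv1-72 share of 0.319 (WT against KO) and 2.99 percentage points (WT plus HET against KO), and the Ighv share of all counts went from -0.0226 to 0.0243 percentage points in the latter. Counting Ighv1-72 with Ighv1-62-3, and the distal share without Ighv1-72, were chosen after seeing the data and kept direction.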
